A study of Mus musculus with 24 samples.

Results

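The 7 genes described here encode enzymes that handle NADPH and reactive oxygen in the mitochondrial matrix. They were chosen by gene symbol, and they are Nnt, Idh2, Txnrd2, Prdx3, Prdx5, Sod2 and Glrx2. They make up 7 of the 55421 genes of the count table and occupy 8 of its entries, because Nnt is listed under 2 gene identifiers.

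The data are polyA RNA-seq of hepatocytes, which carry out most of the liver's metabolism, isolated by perfusion from 24 male mice and analysed in 4 groups of 6. The young groups are labelled C57BL/6N, 6 months old, and the old groups C57BL/6J, 24 months old. Within each age, 1 group ate a normal diet (young ND and old ND) and 1 a high-fat diet with 60% of its energy from fat (young HFD and old HFD), for 9 weeks. The labels name no transgene or drug for any group, and each mouse gave 1 library. Because every young mouse carries one substrain label and every old mouse the other, an effect of age cannot be told apart from one of substrain wherever old mice are set against young. The paper gives other ages, no substrain and another normal diet than the labels, and the group names here follow the labels' age and diet.

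Mitochondria detoxify hydrogen peroxide by passing electrons from NADPH through thioredoxin or glutathione to peroxidases. Nnt, the nicotinamide nucleotide transhydrogenase of the inner membrane, uses the proton gradient to make NADPH, and Idh2, the mitochondrial isocitrate dehydrogenase, is another source of it. Nnt is known for a deletion of several coding exons in C57BL/6J mice, which C57BL/6N mice do not carry, so its transcript could in principle be read against the strain labels.

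The 2 Nnt entries span nearly the same stretch of chromosome, and the sequence below shows one exon that both contain. It is exon 5 of Nnt (GRCm38, chr13:119389194-119389281, minus strand, 88 bases, within the coding part of the gene). It belongs to 3 of 3 protein-coding transcripts of the first entry and to the 1 transcript of the second, and it lies next to a retained-intron stretch that only the first entry holds.

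Nnt exon 5: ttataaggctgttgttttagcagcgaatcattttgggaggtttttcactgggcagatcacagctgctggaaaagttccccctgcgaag

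The first entry, ENSMUSG00000025453, spans chr13:119335448-119408997 with 7037 exonic bases, and the second, ENSMUSG00000116207, spans chr13:119335528-119408952 with 3339. Of the second entry's exonic bases, 0 lie outside the first. The first entry has 3698 exonic bases of its own in 5 stretches, and 2645 of these are in 2 retained introns while 1053 are in mRNA exons. The mRNA part consists of 80 bases at the 3′ end, 928 bases of an alternative last exon and 45 bases at the 5′ end.

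The second Nnt entry had 0 counts in all 24 mice, and the first had 7 to 46 counts per mouse and 692 in all. The same pattern held across the table for genes whose exons lie wholly within those of another gene. Of 632 genes nested in a gene on the same strand, 631 (99.8%) had 0 counts in every mouse, as did 442 of 443 (99.8%) nested only in a gene on the opposite strand. Where the enclosing gene reached 10 CPM (counts scaled to a common library size with TMM factors), the numbers were 231 of 232 (99.6%) and 140 of 141 (99.3%). Among 43430 genes that share no exonic base with another gene, 19861 (45.7%) were at 0.

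With shared bases left uncounted in nearly every nested gene, the deposited Nnt count was read as covering only the bases that the first entry does not share. On that reading 47.4% of its exonic bases, exon 5 among them, contributed nothing. The reference genome is itself that of C57BL/6J. The Nnt count is reported below as a count of those own stretches, in which 2645 of 3698 bases are intronic. It is not the level of Nnt mRNA, and it cannot test the strain labels.

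**Figure D1:**
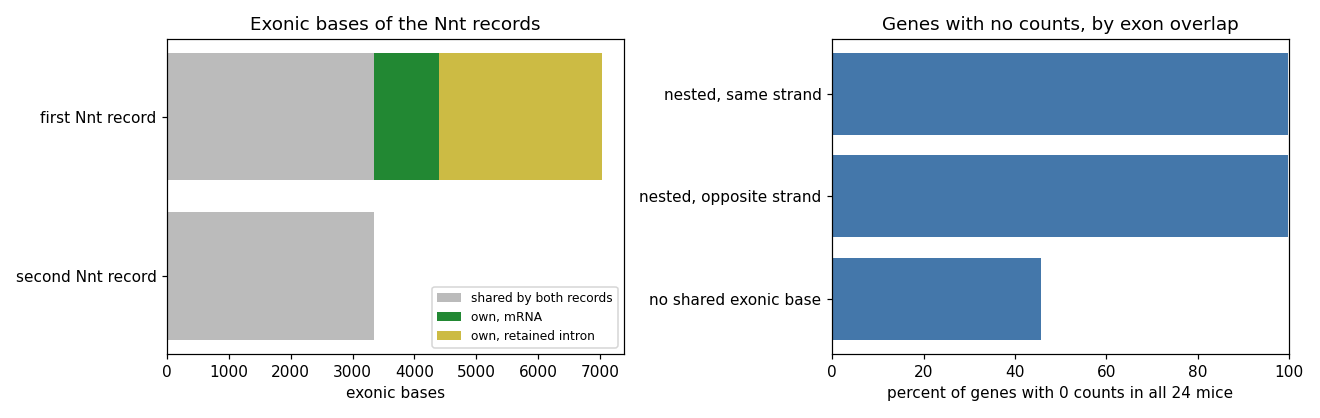
Left, exonic bases (x axis) of the 2 Nnt entries, split into bases shared by both and bases of the first entry alone in mRNA exons or retained introns. Right, percent of genes with 0 counts in all 24 mice (x axis) for genes nested in another gene's exons on the same or opposite strand and for genes that share no exonic base. The second Nnt entry has no base of its own, and both nested classes stand at 99.8% against 45.7%.

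Total counts per mouse ran from 9200332 to 22185069, and the old HFD group had the lowest totals, at most 13517632. Over 60 pairs of mice within groups the chi-square per degree of freedom was at least 14.5, so no pair agreed within counting noise. The 5 hepatocyte markers had a summed level of 37449 to 149127 CPM, above that of every other marker list in each library. Markers of other liver cells were higher in some old mice and are given beside the results they touch.

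0 of the 7 genes passed the test in any of the 5 comparisons with edgeR's quasi-likelihood test and Benjamini-Hochberg adjustment over 13583 genes at an adjusted p of 0.05. Of all genes tested, 3.5% were called for HFD against ND in young mice, 3.01% for HFD against ND in old mice, 8.5% for old ND against young ND, 2.24% for old HFD against young HFD and 0% for the interaction of age and diet. At an unadjusted p under 0.05 there was 1 of the 7 in old ND against young ND (Sod2) and 1 in the interaction (Prdx5), and 0 in the other comparisons. Over all genes, 22.2% had an unadjusted p under 0.05 in old ND against young ND, 21.2% and 22% with HFD in young and old mice, 21% in old HFD against young HFD and 9.18% (1247 genes) in the interaction. DESeq2 called 1 of the 7, Sod2 in old ND against young ND, and limma on the FPKM values called 0.

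**Figure D2:**
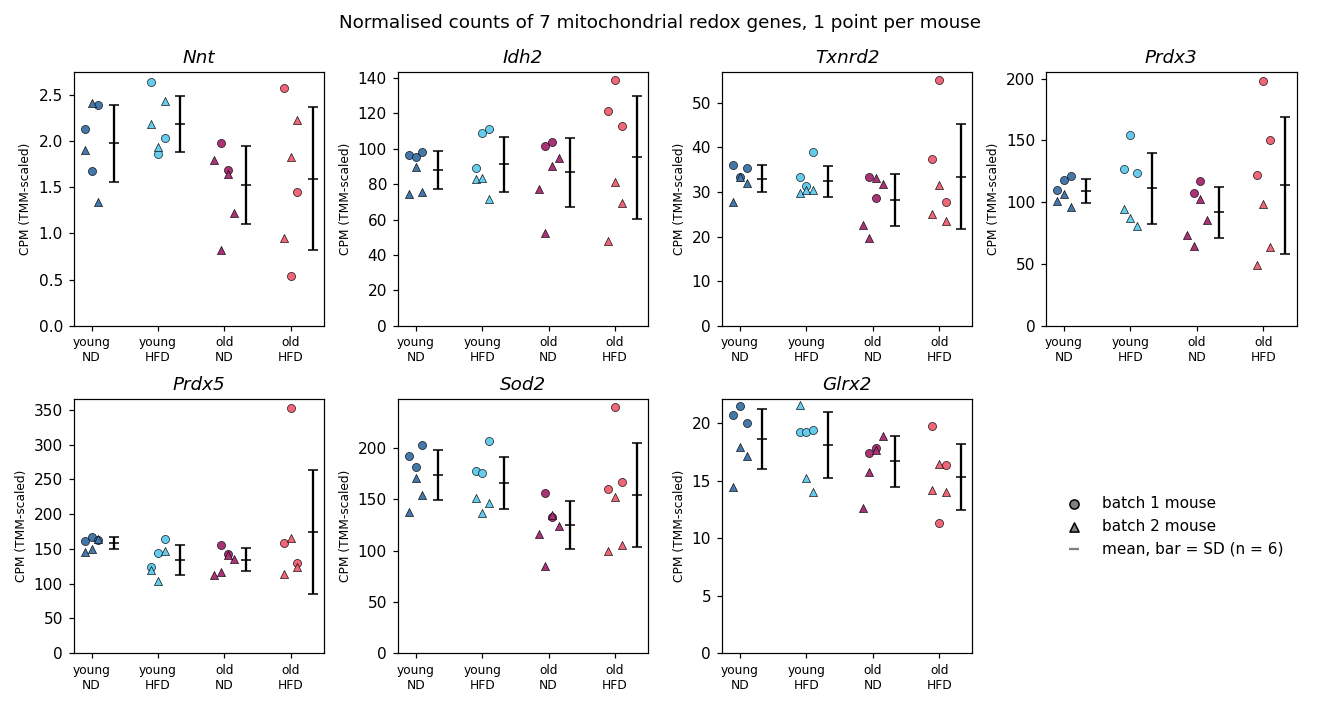
Normalised counts (CPM, y axis) of the 7 genes in the 4 groups, with 1 point per mouse, circles for batch 1, triangles for batch 2, and the mean with its SD (n = 6). The ranges of the groups overlap for every gene, and the old HFD mouse at 352 CPM stands apart in Prdx5.

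Among the genes of NADPH supply, the own stretches of Nnt had a lowest, median and highest level of 1.34, 2.02 and 2.41 CPM in young ND mice and 1.86, 2.11 and 2.64 CPM in young HFD mice. In old ND mice these were 0.817, 1.67 and 1.98 CPM, and in old HFD mice 0.538, 1.64 and 2.57 CPM. The groups overlapped, and the low end of both old groups lay below every young mouse. The log2 fold change was 0.15 (SE 0.308) for HFD against ND in young mice and 0.05 (SE 0.318) in old mice. It was -0.36 (SE 0.313) for old ND against young ND, and -0.45 (SE 0.314) for old HFD against young HFD. The adjusted p of Nnt in edgeR's quasi-likelihood test was lowest in the last comparison, at 0.417. The 95% intervals of these age differences reached down to folds of 0.499 and 0.467, so a difference of that size was not excluded, and 1 mouse had only 7 counts. Without old HFD replicate 2 the value for old HFD against young HFD was -0.26, and without old ND replicate 4 that for old ND against young ND was -0.23. In limma on log2(FPKM + 1), a scale on which the pseudocount far exceeds the Nnt values, the age differences were -0.0080 on ND and -0.012 on HFD.

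The 5 tested genes whose pattern over the 24 mice was nearest to that of the Nnt count were 9430091E24Rik, Sec16b, Glyctk, Ranbp10 and Zkscan1. Their root-mean-square difference from Nnt in z-scored log2 CPM was 0.520 to 0.580, and the median over 13582 genes was 1.36.

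Idh2 (chr7:80094846-80115392, minus strand) had 74.3, 92.7 and 98.0 CPM as lowest, median and highest level in young ND mice and 71.6, 86.3 and 111 CPM in young HFD mice. In old ND mice the values were 52.5, 92.6 and 104 CPM, and in old HFD mice 48.0, 97.1 and 139 CPM. The medians lay close together while the spread was wider in old mice, with an SD of 34.7 CPM in old HFD against 10.7 CPM in young ND (n = 6 each). The log2 fold changes of Idh2 were between 0.01 and 0.05 in the 4 comparisons of pairs of groups, and the interval for HFD against ND in young mice ran from -0.26 to 0.34.

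The thioredoxin route came next. Txnrd2 (chr16:18426384-18479073, plus strand), the mitochondrial thioredoxin reductase, had 27.7, 33.4 and 36.0 CPM in young ND mice and 29.9, 31.0 and 39.0 CPM in young HFD mice. It had 19.6, 30.2 and 33.3 CPM in old ND mice and 23.5, 29.8 and 55.2 CPM in old HFD mice. All groups overlapped, and the log2 fold change of Txnrd2 was -0.18 (SE 0.149) for old ND against young ND and 0.18 (SE 0.15) for HFD against ND in old mice. The latter was 0.03 without old HFD replicate 2. The former was -0.10 without old ND replicate 4, and -0.04 without the 4 old mice that had the most RNA of Kupffer cells, the liver's macrophages.

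Prdx3 (chr19:60864051-60874556, minus strand), the thioredoxin-dependent peroxidase of the matrix, had 96.0, 108 and 121 CPM in young ND mice and 80.6, 109 and 155 CPM in young HFD mice. In old ND mice it had 64.5, 94.1 and 117 CPM, and in old HFD mice 49.5, 110 and 198 CPM. The lowest and the highest of the 24 mice were both old HFD mice. The log2 fold change of Prdx3 was -0.17 (SE 0.172) for old ND against young ND and 0.14 (SE 0.175) for HFD against ND in old mice. With old HFD replicate 2 left out the latter was -0.0049. With the 4 old mice richest in Kupffer markers left out, the values were -0.06 and 0.32, and the former ran from -0.26 to -0.09 when each mouse was left out.

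Prdx5 (chr19:6906697-6910106, minus strand), a peroxiredoxin found in mitochondria, peroxisomes and cytosol, had 145, 162 and 167 CPM in young ND mice and 104, 134 and 164 CPM in young HFD mice. In old ND mice it had 112, 139 and 155 CPM, and in old HFD mice 114, 144 and 352 CPM. The groups overlapped, and 1 old HFD mouse, replicate 2, lay far above the other 23. The log2 fold change of Prdx5 was -0.25 (SE 0.178) for HFD against ND in young mice and 0.30 (SE 0.181) in old mice. The difference between these, the interaction, was 0.55 (SE 0.254), with a 95% interval from 0.02 to 1.07 and an adjusted p of 0.531 in edgeR's quasi-likelihood test. Without old HFD replicate 2, the value for old mice was 0.04 and the interaction 0.28. Of the exonic bases of Prdx5, 19.1% are shared with Trmt112 on the opposite strand, and counts from them may be missing.

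Sod2 (chr17:13006846-13040063, plus strand), the manganese superoxide dismutase that turns superoxide into hydrogen peroxide, came closest to the threshold. It had 137, 177 and 203 CPM in young ND mice and 85, 129 and 156 CPM in old ND mice. Of these groups, the highest old mouse lay within the range of the young, and the median of old mice lay below the lowest young mouse. In batch 1, young ND mice ran from 182 to 203 CPM and the 2 old ND mice from 133 to 156 CPM. In batch 2, young ND mice ran from 137 to 171 CPM and the 4 old ND mice from 84.9 to 135 CPM. In young HFD mice the values were 137, 164 and 207 CPM and in old HFD mice 100, 156 and 240 CPM.

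The log2 fold change of Sod2 for old ND against young ND was -0.40 (SE 0.133), with a 95% interval from -0.68 to -0.13 and an adjusted p of 0.0598 in edgeR's quasi-likelihood test. Within batch 1 it was -0.40 and within batch 2 -0.43. Over the 36 alternatives the log2 fold change ran from -0.48 to -0.31. The call moved with the fit, because the adjusted p over these alternatives ran from 0.0193 to 0.573. Without old HFD replicate 2, old HFD replicate 4 or old ND replicate 5 it passed the threshold, at 0.0193, 0.0471 and 0.0302. The difference for old HFD against young HFD was -0.13 (SE 0.132), and for HFD against ND in old mice 0.21 (SE 0.134). These were -0.25 and 0.10 without old HFD replicate 2.

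The promoter of Sod2 is shown because its letters hold the most GC boxes among the members whose promoters were matched. It is the RefSeq sequence of GRCm38.p6, chr17:13007589-13007888, plus strand, a window of 300 bases around the start, and the capitals mark GGGCGG, the core letters of the SP1 motif, searched on both strands. There were 4 matches.

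Sod2 promoter: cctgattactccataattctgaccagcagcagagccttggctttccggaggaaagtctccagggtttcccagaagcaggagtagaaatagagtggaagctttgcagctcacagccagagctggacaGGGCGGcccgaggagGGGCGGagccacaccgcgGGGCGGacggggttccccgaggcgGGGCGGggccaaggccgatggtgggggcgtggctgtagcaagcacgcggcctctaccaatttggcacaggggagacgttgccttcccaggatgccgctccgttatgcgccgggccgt

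GGGCGG was found in 35.7% of 32851 promoters of the same length. It occurred 2 times in the promoter of Idh2, 1 time each in those of Txnrd2, Prdx3 and Prdx5, and 2 times at 2 of 4 starts of Glrx2. TGACNNNGC, an antioxidant response element, was in 12.4% of promoters, the NRF1 motif in 4.6% and TCAAGGTCA, an ERRA motif, in 0.423%. None of these 3 motifs was in the promoters of the 6 members matched. Nnt was not matched.

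Glrx2 (chr1:143716338-143749676, plus strand), the glutaredoxin that exchanges glutathione with protein thiols in mitochondria, had 14.5, 19 and 21.5 CPM in young ND mice and 14, 19.3 and 21.6 CPM in young HFD mice. It had 12.6, 17.6 and 18.9 CPM in old ND mice and 11.3, 15.3 and 19.8 CPM in old HFD mice. The mean fell from young ND to young HFD, then to old ND and to old HFD, and neighbours in that order differed by less than the SD. The log2 fold change of Glrx2 for old HFD against young HFD was -0.24 (SE 0.130), with an interval from -0.51 to 0.03, and -0.15 without old HFD replicate 2.

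**Figure D3:**
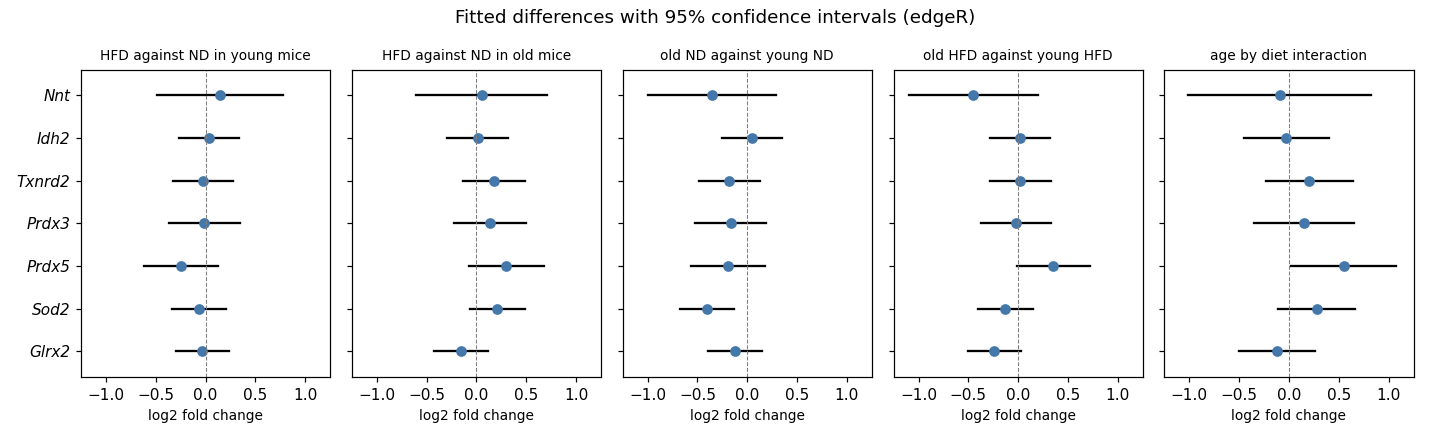
Fitted log2 fold changes (x axis) of the 7 genes with 95% confidence intervals, for the 4 comparisons of pairs of groups and the interaction of age and diet. The intervals of Sod2 in old ND against young ND and of Prdx5 in the interaction exclude 0 before adjustment over 13583 genes, and the widest intervals are those of Nnt.

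Per kilobase of exons, the members spanned a wide range of levels. Levels per kilobase were taken over the bases that no other gene shares. These bases pool the exons of every annotated transcript, 10008 for Sod2, 8772 for Glrx2 and 2588 for Idh2. The levels and their order therefore depend on annotated length. In young ND mice the level was 91.5 ± 5.06 RPKM for Prdx5 and 73.6 ± 6.55 RPKM for Prdx3 (SD, n = 6 each). Over all its exonic bases Prdx5 would have 74.0 ± 4.09 RPKM (SD, n = 6), which is within the SD of Prdx3. Idh2 followed with 34.1 ± 4.14 RPKM and Sod2 with 17.3 ± 2.44 RPKM. In CPM their order was the reverse, with means of 173 for Sod2 and 88.3 for Idh2 in young ND mice. Txnrd2 had 7.81 ± 0.703 RPKM and Glrx2 2.12 ± 0.299 RPKM (SD, n = 6 each). No such level is given for Nnt, whose own stretches are mostly retained introns.

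Single mice stood at the ends of the range in several members. Old HFD replicate 2 was the highest of 24 mice in 5 genes (Idh2, Txnrd2, Prdx3, Prdx5 and Sod2) and the lowest in 2 (Nnt and Glrx2). Old HFD replicate 4 was the lowest in Idh2 and Prdx3, and old ND replicate 4 the lowest in Txnrd2 and Sod2. Old ND replicate 4 also had the lowest sum of hepatocyte markers, 37449 CPM. Bulk RNA cannot tell fewer cells of a type from less RNA per cell.

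Many of the lowest values of the members were in mice with high levels of Kupffer cell markers, the genes of the liver's resident macrophages. The summed level of the 5 Kupffer markers ran from 0.739 to 55.8 CPM in young ND, 9.72 to 154 CPM in young HFD, 28.4 to 906 CPM in old ND and 50.6 to 490 CPM in old HFD mice. It was 502 and 906 CPM in old ND replicates 3 and 4 and 383 and 490 CPM in old HFD replicates 4 and 6, and at most 154 CPM in the other 20 mice. Of the 21 places among the lowest 3 mice of each gene, these 4 mice held 17 (81%), and they held 0 of the places among the highest 3. Over all 13583 genes tested they held 27.8% of the lowest and 30% of the highest places. The same tally was not made for other mitochondrial or hepatocyte genes, so it was not shown to be particular to the members. The lowest mouse of all was among these 4 mice for 4 of the 7 genes. For Nnt and Glrx2 it was old HFD replicate 2, with a Kupffer sum of 50.6 CPM, and for Prdx5 young HFD replicate 5. All 4 were batch 2 mice. The Kupffer sum was also lower in batch 1 than in batch 2 of young ND mice, at 0.739 to 3.25 CPM against 31.5 to 55.8 CPM, so marker level and batch were tied in part.

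For old ND against young ND, 5 of 5 Kupffer markers, 3 of 4 sinusoidal endothelial markers and 3 of 4 stellate cell markers were higher by edgeR's quasi-likelihood test. So were 2 of 2 tested genes of the lymphocyte list, which includes Ptprc, a gene not confined to lymphocytes. The summed endothelial markers ran from 8.06 to 88.5 CPM in young ND and 23.2 to 460 CPM in old ND mice, and the stellate markers from 5.25 to 63.2 CPM and from 60.9 to 372 CPM. The sum of the lymphocyte list ran from 0.189 to 2.86 CPM and from 2.45 to 32.9 CPM, and Cd79a was at 0 in all young ND mice. Most of that sum was Ptprc, with a mean of 11.6 CPM in old ND mice. The means of Cd3e, Cd8a, Cd79a and Ms4a1 there were 0.22 to 0.71 CPM, so the sum is not a level of lymphocytes alone. Without the 4 mice above, the log2 fold change of Sod2 for old ND against young ND was -0.31 with an adjusted p of 0.181 in edgeR's quasi-likelihood test. That fit held 4 old ND mice in place of 6, and the part of other cells in the Sod2 difference was not tested.

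**Figure D4:**
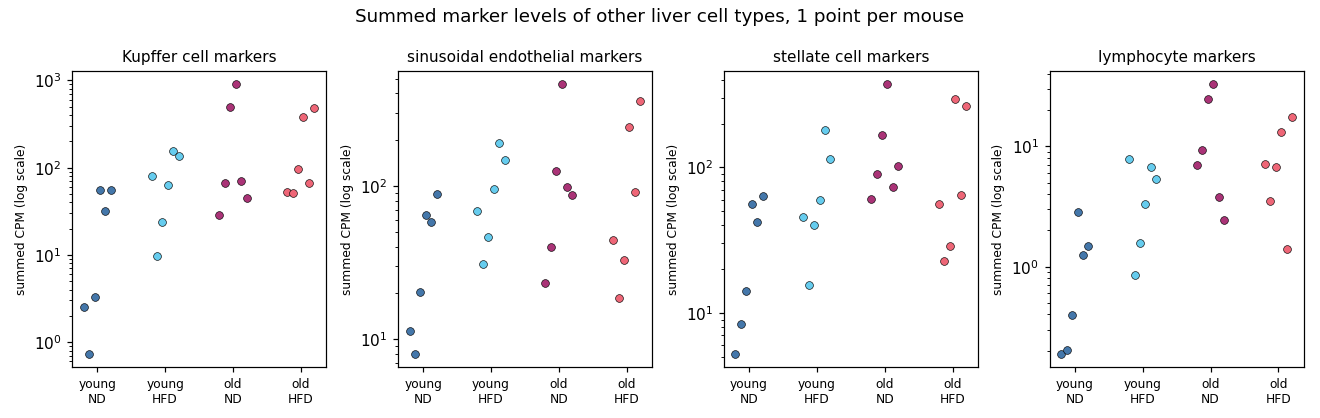
Summed levels (CPM, log scale on the y axis) of the Kupffer, sinusoidal endothelial, stellate and lymphocyte marker lists in the 4 groups, 1 point per mouse. The lymphocyte list is mostly Ptprc, which is not confined to lymphocytes. In the Kupffer panel 4 old mice lie between 383 and 906 CPM and the other 20 at 154 CPM or below.

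The labels also put each mouse in 1 of 2 batches, without saying what a batch was, and these separated some members. Idh2 and Prdx3 were higher in every batch 1 mouse than in every batch 2 mouse of the same group, in all 4 groups, which held for 1.57% of all genes tested. Idh2 ran from 95.5 to 98.0 CPM in batch 1 and 74.3 to 90.0 CPM in batch 2 of young ND, and from 113 to 139 CPM against 48.0 to 81.1 CPM in old HFD. Prdx3 ran from 122 to 198 CPM against 49.5 to 98.8 CPM in old HFD. Nnt overlapped between batches in every group. Batch was a term of the fit.

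The wider pathway was followed in 48 further genes in 7 lists. In mitochondrial NADPH supply, 0 of 6 tested genes of 8 were called in any comparison, and the list's median log2 fold change for old ND against young ND was -0.09 beside 0.01 over all genes. Nadk2, the mitochondrial NAD kinase, had a mean of 161 CPM in old ND and 235 CPM in young ND mice, a log2 difference of -0.47 (SE 0.158) with an adjusted p of 0.0674 in edgeR's quasi-likelihood test. In the thioredoxin and peroxiredoxin list, 0 of 5 genes were called. The smallest adjusted p there outside the members was that of Txn2, mitochondrial thioredoxin, at 98 CPM in old ND and 121 CPM in young ND mice (adjusted p 0.158).

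In the mitochondrial glutathione list of 10 genes, 1 rose and 1 fell with HFD in young mice, 1 rose with HFD in old mice and 1 was lower in old ND than young ND. Gstk1, a glutathione transferase of mitochondria and peroxisomes, rose from 103 to 159 CPM with HFD in young mice (log2 0.63, SE 0.179) and from 79.3 to 180 CPM in old mice (log2 1.10, SE 0.184). Its HFD and ND mice did not overlap at either age, and the call in young mice was lost in 16 of the 24 fits that left out 1 mouse. Gsr, glutathione reductase, fell from 75.5 to 56.5 CPM with HFD in young mice (log2 -0.41, SE 0.0895), again without overlap. How many of all genes did not overlap was not counted, and both genes were named for their small adjusted p. Gpx1, a glutathione peroxidase, was at 996 CPM in old ND against 1428 CPM in young ND mice (log2 -0.48, SE 0.151), with an adjusted p of 0.0493 in edgeR's quasi-likelihood test, a call lost in 19 of the 24 fits that left out 1 mouse. Without the 4 mice high in Kupffer markers Gpx1 was at -0.37 with an adjusted p of 0.206 in edgeR's quasi-likelihood test.

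In the superoxide list of 5 genes, the extracellular dismutase Sod3 rose in 2 comparisons and no gene fell. Sod3 had 0.189, 2.45 and 6.42 CPM in young ND and 4.59, 9.87 and 45.3 CPM in old ND mice, a log2 difference of 2.7 (SE 0.513). Without the 4 mice it was 2.23 with an adjusted p of 0.0697 in edgeR's quasi-likelihood test, and when each mouse was left out it ran from 2.39 to 2.99 and stayed called. It was 4.59 in batch 1 alone and 2.02 in batch 2 alone. It was also higher with HFD in young mice (log2 1.94, SE 0.513), at 3.58 in batch 1 alone and 1.34 in batch 2 alone, a call lost in 9 of the 24 fits that left out 1 mouse. In that comparison the Kupffer markers had a median log2 fold change of 2.21, the stellate markers 1.62 and the endothelial markers 1.48, with 1 of 5, 1 of 4 and 1 of 4 called, and their part in the Sod3 difference was not tested. Catalase was not called.

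Of 11 cytosolic counterparts, 2 fell with HFD at each age. G6pdx, which starts the pentose phosphate route to NADPH, fell from 5.48 to 2.68 CPM in young mice (log2 -1.02, SE 0.253), a call lost in 8 of the 24 fits that left out 1 mouse, and from 8.95 to 3.65 CPM in old mice (log2 -1.23, SE 0.254). Txnrd1, the cytosolic thioredoxin reductase, fell from 148 to 109 CPM in young mice (log2 -0.44, SE 0.119) and from 135 to 100 CPM in old mice (log2 -0.46, SE 0.121), where the call was lost in 11 of the 24 fits that left out 1 mouse, and in young mice in 14. In old mice it was -0.31 with an adjusted p of 0.101 in edgeR's quasi-likelihood test without the 4 mice high in Kupffer markers. For its mitochondrial counterpart Txnrd2 the log2 differences were -0.03 and 0.18, the latter 0.03 without old HFD replicate 2, and the difference between the genes was not tested.

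Of 6 regulators, 0 were called, and Esrra had the smallest adjusted p, 0.207, for old HFD against young HFD. Of 10 genes of mitochondrial content, 1 was called, Slc25a4, an ADP/ATP carrier, at 4.32 CPM in old ND against 1.08 CPM in young ND mice (log2 1.77, SE 0.503). Without the 4 mice it was 1.06 and no longer called, and the call was lost in 7 of the 24 fits that left out 1 mouse. The content list's median for that comparison was -0.24, with 9 of 10 genes negative, beside 0.01 over all genes and -0.18 over the 7 members, of which 6 were negative. Without the 4 mice the members' median was -0.06, again with 6 of 7 negative. With HFD in old mice the content list's median was 0.18 with 8 of 10 positive, and the members' median was 0.14 with 6 of 7 positive, beside -0.01 over all genes. Without old HFD replicate 2 the members' median was 0.03 with 4 of 7 positive. Of the other genes linked to the substrains, Wdfy1 had a log2 difference of 0.62 for old ND against young ND (adjusted p 0.0876 in edgeR's quasi-likelihood test). Entpd4 was at 0 counts in all mice, and whether its exons are shared with another gene was not looked at.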

How the data were processed

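Hepatocyte polyA RNA of 24 mice was sequenced. Per the labels, FastQC 0.11.8, STAR 2.7.3a and HTSeq 0.11.2 were used with mm10. Gene counts were deposited as whole numbers by the authors, together with FPKM values adjusted between batches. For 95.5% of 8994 genes at 5 CPM or more, the deposited FPKM matched the counts divided by gene span, introns included, within 1.25-fold, so levels between genes were computed from counts and exonic length. Strand and overlap settings of the counting are not given in the sources used here. Exons were read from GENCODE M21, to which 55154 of 55421 gene identifiers matched. The paper names another GENCODE release for the alignment, so shared and own bases may differ from those at counting, and the count table had 0 columns without a sample.

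Groups, replicate numbers and batches came from the labels, which name separate mice. Counts were tested with edgeR 4.0.16 (R 4.3.3) by quasi-likelihood F tests with TMM scaling, filterByExpr and 1 model of group and batch over all mice, with Benjamini-Hochberg adjustment over 13583 genes and a threshold of 0.05. Intervals cover 95%. Log2 CPM used a prior count of 2. The fit was tested on simulated counts with large planted changes in well-counted genes and no batch effect. That setting did not cover the low Nnt counts or the small differences of the members. Alternatives were RLE scaling, no filter, DESeq2 1.42.0, no batch term, only the groups compared, a replicate block, each batch alone, limma 3.58.1 on log2(FPKM + 1) and log2(FPKM + 0.1), and each mouse left out. After seeing the data, fits without old HFD replicate 2 and old ND replicate 4, and without the 4 old mice highest in Kupffer markers, were added. Reads carried no molecular identifiers, and the part of duplicate reads in the errors was not measured.

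The members, lists and markers were chosen with earlier results of these data known. Every member is named, with at most 3 genes per pathway list by smallest adjusted p and the 5 profiles nearest to Nnt. Further genes (Wdfy1, Entpd4, Cd79a, Ptprc, Cd3e, Cd8a, Ms4a1 and Alb) were named after their values were seen.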

Additional observations from a re-analysis of the deposited data

Results flagged for a closer look

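Prdx5 in old HFD replicate 2 stood apart from the other 5 mice of its group. Its level was 352 CPM, 8.46 on the log2 CPM scale, against 7.37 in the next mouse and a group median of 7.16. The gap to the next mouse was 0.668 of the group's range, above Dixon's 95% limit for 6 mice. It was the only mouse to pass that limit among 28 gene and group pairs, of which chance passes about 1 in 20.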

How the results depend on the processing

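Each of the 7 genes was refitted under up to 36 alternatives, and Sod2 in old ND against young ND was the only one to pass the threshold in any. The count of genes called in that comparison was 1 in place of 0 with DESeq2, with only the 2 groups compared and with the replicate block, and 0 to 1 when each mouse was left out. With the replicate block Sod2 was -0.48 with an adjusted p of 0.0306 in edgeR's quasi-likelihood test. The replicate numbers were not taken as pairs, since 21 and not all of 36 same-numbered pairs correlated above 0.1, and in 8 pairs the first mouse correlated best with its own number. The block ended the calls with HFD in young mice of Gstk1 (log2 0.61), Sod3 (1.89), G6pdx (-1.03) and Txnrd1 (-0.43) and with HFD in old mice of Txnrd1 (-0.45). The block also moved the calls over all genes from 475 to 283 for HFD in young mice and from 304 to 131 for old HFD against young HFD. Over all alternatives the calls over all genes ran from 9 to 2302 for HFD in young mice, 15 to 1108 for HFD in old mice, 2 to 2053 for old ND against young ND, 0 to 1235 for old HFD against young HFD and 0 to 587 for the interaction.

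The log2 changes that turned direction were of members that were not called, and the cause was not tested. For HFD against ND in young mice, Txnrd2 was 0.012 and 0.027 in limma on log2(FPKM + 1) and log2(FPKM + 0.1) and 0.0079 without both outlying old mice. Prdx3 was 0.0088 with RLE, 0.0084 with DESeq2, 0.032 without the batch term, 0.027 with only the groups compared, 0.22 in batch 1, 0.069 and 0.075 in limma, 0.027 without both old mice and 0.017 without the 4 mice high in Kupffer markers. Glrx2 was 0.064 in batch 2, 0.0035 and 0.0063 in limma and 0.00022 without both old mice. For HFD against ND in old mice, Nnt was -0.31 in batch 1 and -0.070 without the 4 mice. Idh2 was -0.019 without the filter, -0.012 with only the groups compared, -0.24 in batch 2 and -0.13 without both old mice, where Txnrd2 was -0.023 and Prdx3 -0.037, and Prdx3 was -0.19 in batch 2. For old ND against young ND, Idh2 was -0.027 without the batch term, -0.043 with the replicate block and -0.029 in batch 2. For old HFD against young HFD, Idh2 was -0.024 without the filter, -0.28 in batch 2 and -0.065 without both old mice. Txnrd2 was -0.024 without the filter, -0.20 in batch 2, -0.0056 and -0.031 in limma and -0.14 without both old mice. Prdx3 was 0.0038 with RLE, 0.0010 with DESeq2, 0.032 without the batch term, 0.18 in batch 1 and 0.24 without the 4 mice, where Sod2 was 0.028. For the interaction, Nnt was 0.045 in batch 2, Idh2 was 0.091 without the batch term, 0.045 with the replicate block, 0.14 in batch 1 and 0.043 without the 4 mice, Txnrd2 was -0.031 without both old mice, and Prdx3 was -0.0060 in batch 2 and -0.064 without both old mice.

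When each mouse was left out, HFD against ND in young mice ran from -0.055 to 0.027 for Txnrd2, -0.073 to 0.056 for Prdx3 and -0.11 to 0.030 for Glrx2. HFD against ND in old mice ran from -0.13 to 0.23 for Nnt, -0.066 to 0.16 for Idh2 and -0.0049 to 0.30 for Prdx3. Idh2 ran from -0.025 to 0.14 for old ND against young ND and -0.065 to 0.13 for old HFD against young HFD, where Txnrd2 ran from -0.14 to 0.086 and Prdx3 from -0.18 to 0.11. The interaction ran from -0.27 to 0.083 for Nnt and -0.13 to 0.084 for Idh2.

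Among the called pathway genes, fewer alternatives kept Gpx1 (9) and Gstk1 in young mice (14) than Gstk1 in old mice (33) past the threshold, and with the 4 mice high in Kupffer markers left out, Gpx1 (-0.37), Sod3 (2.23) and Slc25a4 (1.06) in old ND against young ND and Txnrd1 with HFD in old mice (-0.31) kept their direction and were no longer called, with 4 old mice a group in place of 6. Depth limits Nnt most, with 7 to 46 counts per mouse.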
